A study of Mus musculus with 33 samples.

Results

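This report describes 10 genes that encode secreted products of the visceral endoderm, out of 16336 genes quantified by RNA-seq: *Afp*, *Ttr*, *Rbp4*, *Apoa1*, *Apoa4*, *Apob*, *Apoc2*, *Apoe*, *Apom* and *Spink1*. They were chosen as known products of this tissue and selected on measured values, since several of them had the lowest fold changes of mutant against wild-type cells on day 8. The day 8 values of the mutants against wild type are therefore given as a description, without a test. The cells were wild-type E14Tg2a mouse embryonic stem (ES) cells of strain 129/Ola and 2 derivatives, ΔK9.1 and ΔK9.2. In both derivatives Cas9 removed, on both alleles, the DNA between an enhancer and the promoter of *Nanog* that carries the repressive histone mark H3K9me3, and each derivative is 1 clone. Every line was sampled undifferentiated in serum with LIF (day 0) and after 4, 6 and 8 days of embryoid body differentiation without LIF, with 3 replicates on days 0, 4 and 8 and replicates 2 and 3 on day 6, making 33 libraries. The day 4 samples were floating aggregates, and the day 6 and day 8 samples had been replated at low density on gelatin, so that time and replating cannot be told apart after day 4.

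The visceral endoderm is the epithelium that surrounds the early mouse embryo. Before the liver and placenta function, it takes up maternal nutrients and secretes plasma proteins and lipoproteins, a set of products that the fetal liver and gut later make too. In embryoid bodies a comparable layer forms on the outside of the aggregate. Among the 10 genes, *Afp* encodes alpha-fetoprotein, the major fetal plasma protein. *Ttr* and *Rbp4* encode transthyretin and retinol binding protein, which together carry retinol. *Apob* is the structural protein of lipoprotein particles, *Apoa1* and *Apoa4* are apolipoproteins of high-density lipoproteins and chylomicrons, and *Apom* is a lipid-carrying apolipoprotein. *Apoc2* is the cofactor of lipoprotein lipase, *Apoe* is the ligand by which particles bind their receptors, and *Spink1* encodes a secreted trypsin inhibitor.

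Promoter sequences were found in RefSeq (GRCm38.p6) for 8 of the 10 genes, with 11 start sites. Because 9 of the 10 genes varied together across libraries, the 250 bases before each start were searched on both strands for short motifs of factors known from endoderm and liver. A FOXA motif (TGTTTNC) was present for 5 of the 8 genes (*Afp*, *Apoa1*, *Apob*, *Apom* and *Rbp4*), against 17.835% of 32851 mouse promoter windows of this length. The letters TATAAA were present for 4 of 8 (*Afp*, *Apob*, *Apoe* and *Rbp4*), against 12.368% of windows. The letters AGATAA, which GATA factors bind (9.988% of windows), and CAAAGTCC, which HNF4 factors bind (1.196%), were in none of the 8, which says only that these letters are not in these windows. Among all matches, the pair of TATAAA matches of *Apoe*, on opposite strands, share bases. Genes with several starts had several windows and so more chance of a match. The 4 sequences below were picked from the 5 genes with a FOXA match, leaving out windows that lie mostly inside the GENCODE gene. Capitals mark the motifs, and bases inside the GENCODE gene were left off.
Afp, chr5:90490464-90490713, plus strand: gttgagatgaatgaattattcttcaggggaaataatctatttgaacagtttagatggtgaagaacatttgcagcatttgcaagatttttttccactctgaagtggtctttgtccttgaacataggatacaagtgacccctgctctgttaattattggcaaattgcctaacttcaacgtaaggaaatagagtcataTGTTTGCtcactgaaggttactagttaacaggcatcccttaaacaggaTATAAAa
Apoa1, chr9:46228380-46228579, plus strand: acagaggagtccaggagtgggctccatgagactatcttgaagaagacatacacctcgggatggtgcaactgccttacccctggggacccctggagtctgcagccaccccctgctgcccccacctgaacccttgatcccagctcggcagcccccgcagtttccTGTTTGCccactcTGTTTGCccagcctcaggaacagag
Apob, chr12:7977427-7977647, plus strand: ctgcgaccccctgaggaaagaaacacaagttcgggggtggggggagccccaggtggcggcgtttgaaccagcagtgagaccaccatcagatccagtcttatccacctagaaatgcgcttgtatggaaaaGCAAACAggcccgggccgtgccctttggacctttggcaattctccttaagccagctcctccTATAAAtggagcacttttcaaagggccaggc
Rbp4, chr19:38125322-38125571, minus strand: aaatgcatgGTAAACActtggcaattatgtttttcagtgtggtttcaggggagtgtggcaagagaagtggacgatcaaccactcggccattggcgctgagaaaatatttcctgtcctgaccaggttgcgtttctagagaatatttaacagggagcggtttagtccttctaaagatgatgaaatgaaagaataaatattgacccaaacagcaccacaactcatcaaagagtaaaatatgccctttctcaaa
Positions are counted from the RefSeq start, and the printed runs of *Apoa1* and *Apob* stop 50 and 29 bases before it. In *Afp* the FOXA match lay 55 to 49 bases before the start, and TATAAA followed nearer to it. In *Apoa1* the 2 FOXA matches were the same 7 letters, at 88 to 82 and 75 to 69 bases before the start. In *Apob* and *Rbp4* the FOXA match was on the opposite strand.

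All 10 genes are protein coding and were placed on mm10 with the GENCODE M21 annotation. *Apoa1* and *Apoa4* lie 10.2 kb apart on chromosome 9, and *Apoe* and *Apoc2* 18.2 kb apart on chromosome 7. *Ttr* and *Spink1* are both on chromosome 18, and *Afp* (chromosome 5), *Apob* (12), *Apom* (17) and *Rbp4* (19) stand alone. A read-through gene annotated on the same strand covers *Apoc2*, so that reads could be divided between them in the estimate.

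Levels are given in TPM, a unit of transcript abundance corrected for gene length and for the total of each library, whose read depth is unknown from these values. The libraries each held 12903 to 13905 genes at 1 TPM or more. *Nanog*, whose regulatory region was deleted, overlapped between the lines on day 4, at 183 to 207 TPM in E14Tg2a and 184 to 234 TPM in the clones. On day 8 it stood at 22.0 to 34.6 TPM in E14Tg2a and at 49.3 to 177 TPM in the clones. The deletion lies outside the *Nanog* transcript, so the *Nanog* level does not check the labels.

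In wild-type cells 9 of the 10 genes were low or at 0 in ES cells and came up in embryoid bodies. *Afp* was listed at 0 in all 3 E14Tg2a libraries on day 0. On day 4 it stood at 255, 20.2 and 76.7 TPM in replicates 1, 2 and 3, on day 6 at 4.65 and 51.4 TPM in replicates 2 and 3, and on day 8 at 129, 20.4 and 49.2 TPM. Replicates thus differed widely on day 4 and day 6, without overlapping day 0. *Ttr* was at 0.668, 0 and 0 TPM on day 0, at 125, 20.6 and 59.0 TPM on day 4, at 3.86 and 30.4 TPM on day 6, and at 114, 104 and 64.5 TPM on day 8. *Rbp4* started from 3.99, 4.18 and 3.40 TPM and reached 113, 12.2 and 56.9 TPM on day 4 and 123, 195 and 143 TPM on day 8. All day 8 libraries of *Rbp4* were above all day 4 libraries, whereas those of *Ttr* overlapped. *Spink1* was already at 16.5, 2.02 and 8.85 TPM on day 0 and was at 145, 22.8 and 103 TPM on day 4 and 252, 199 and 392 TPM on day 8.

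With limma on log2(TPM + 1) over all genes and Benjamini-Hochberg adjustment, a gene was called at an adjusted p under 0.05 and a log2 difference over 1. By this rule 9 of the 10 genes rose from day 0 to day 4 in E14Tg2a, where 3.67% of all genes were called higher. *Afp* rose by 6.23 ± 0.99 (log2 difference ± SE, n = 3 per group, adjusted p = 4.46e-05) and *Ttr* by 5.53 ± 0.86 (adjusted p = 3.44e-05). The smallest called rise was that of *Apom*, 2.50 ± 0.69 (adjusted p = 0.00855). The apolipoproteins *Apoa1* (5.05), *Apob* (3.84), *Apoa4* (3.69) and *Apoc2* (3.53) lay between them. For genes near 0 TPM on day 0 these values depend on the pseudocount of 1, and with a pseudocount of 0.1 the difference of *Afp* was 9.52. *Apoe* was the exception, with a difference of 0.93 that passed the p threshold (adjusted p = 0.0237) but not the size threshold.

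Between day 4 and day 6 the wild-type means of all 10 genes were lower, and 6 of the 10 passed the test, beside 4.14% of all genes called lower. These were *Apoa1* (log2 difference -2.78 ± 0.81), *Apoc2* (-2.54 ± 0.71), *Apoa4* (-2.20 ± 0.60), *Apom* (-2.19 ± 0.77), *Apob* (-1.95 ± 0.60) and *Apoe* (-1.70 ± 0.34), all of them apolipoproteins. The other four had differences of -2.15 (*Ttr*), -2.12 (*Afp*), -1.27 (*Rbp4*) and -0.58 (*Spink1*). Only 1 of the 10 was called without replicate 1 of day 4, without replicate 2 of day 6, or when the spread was estimated from these groups alone. On day 6 wild-type replicate 3 was higher than replicate 2 for all 10 genes, as *Apob* shows with 6.96 against 1.28 TPM. Against day 0, 5 of the 10 were still higher on day 6 (*Afp*, *Ttr*, *Apoa1*, *Rbp4* and *Apob*, with 8.95% of all genes called higher), and none was called without replicate 3 of day 6.

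By mean level, the members had their highest day at different times. *Afp*, *Apoa1*, *Apoa4*, *Apob*, *Apoe* and *Apom* were highest on day 4, and *Ttr*, *Rbp4*, *Apoc2* and *Spink1* on day 8. The ends of this range were *Apoa4*, whose day 8 mean was 0.208 times its day 4 mean, and *Spink1*, whose day 8 mean was 3.11 times that of day 4. The same ratio was 0.410 for *Apoa1*, 0.563 for *Afp* and 2.53 for *Rbp4*. These ratios compare means of 3 libraries that differed widely on day 4, and they were not tested because day 8 entered the choice of the genes.

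**Figure D1:**
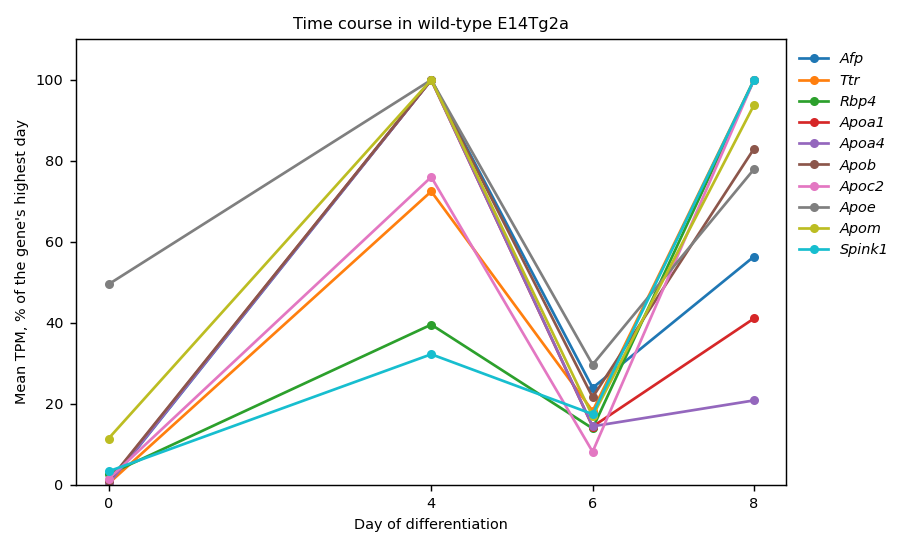
Mean TPM of the 10 genes in wild-type E14Tg2a on each day (x axis, day of differentiation), as a percentage of each gene's own highest day (y axis, from 0), 3 libraries per day and 2 on day 6. Every gene has a lower mean on day 6 than on days 4 and 8, and on day 8 the lines spread from *Apoa4*, at 0.208 times its day 4 mean, to *Spink1*, at 3.11 times.

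On day 8 the wild-type levels ran from *Apoe* (1142 ± 126 TPM, SD, n = 3) through *Spink1* (281 ± 99.7), *Rbp4* (154 ± 37.6), *Ttr* (94.2 ± 26.2) and *Afp* (66.1 ± 56.1) to *Apoc2* (29.4 ± 11.4), *Apoa1* (24.8 ± 10.9), *Apom* (23.6 ± 6.25), *Apob* (15.8 ± 6.13) and *Apoa4* (3.57 ± 1.94). The libraries of *Apoe*, *Spink1*, *Rbp4* and *Apoa4* did not overlap those of their neighbours in this order, by a narrow margin for *Spink1* and *Rbp4*. From *Ttr* to *Apob*, neighbouring genes overlapped. Without *Apoe*, the genes together made up 631 to 730 TPM of the day 8 E14Tg2a libraries.

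**Figure D2:**
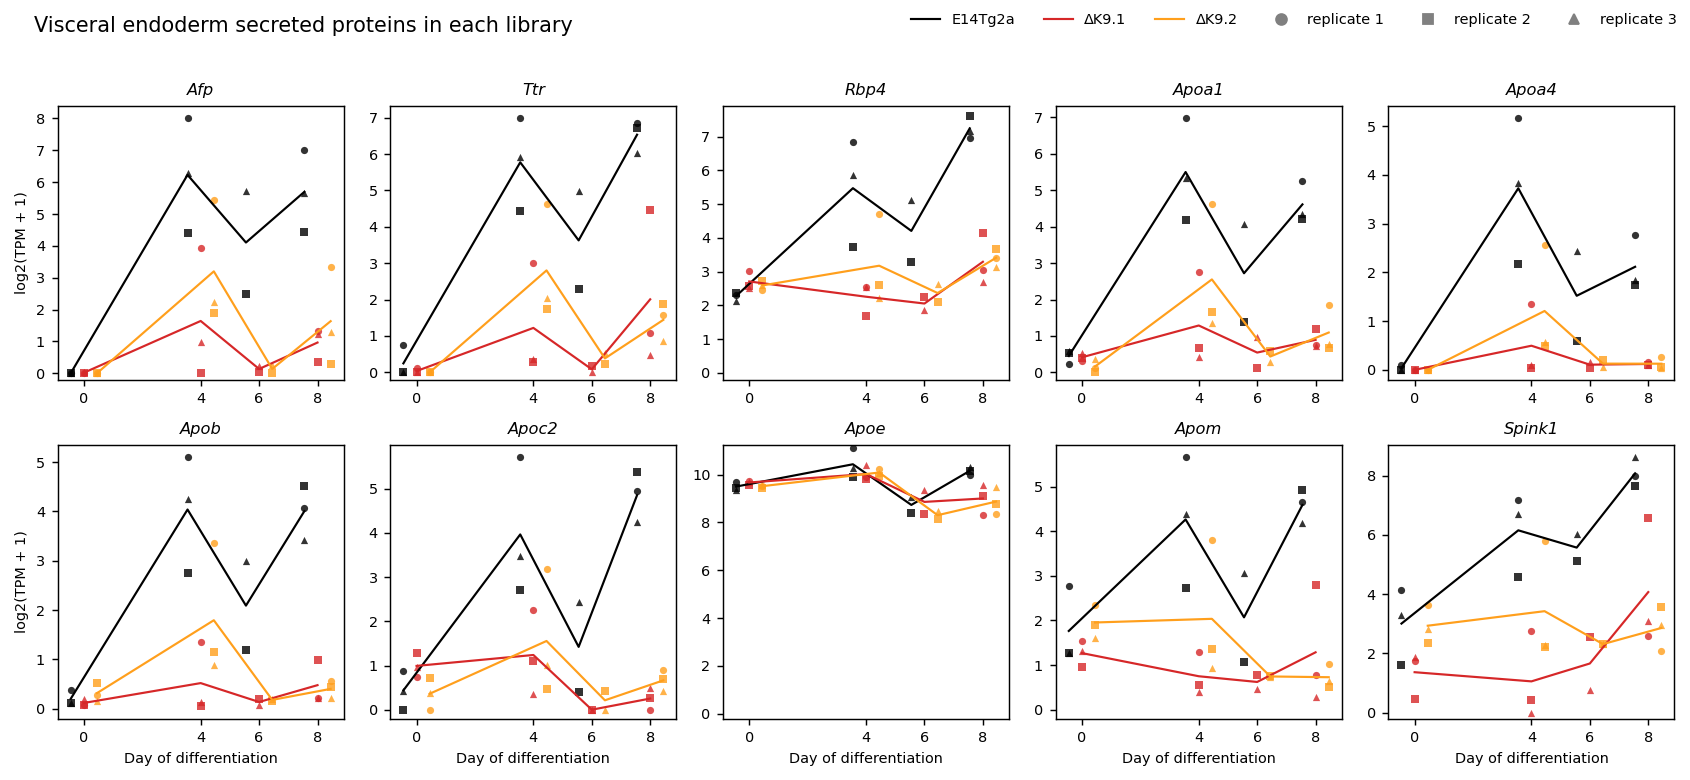
Level of each of the 10 genes, as log2(TPM + 1) (y axis, scaled for each gene), on each day of differentiation (x axis). Each point is 1 library, its shape gives the replicate and its colour the line, and lines join the group means. The means of wild-type E14Tg2a (black) rise from day 0 to day 4, dip on day 6 and are higher again on day 8, those of both ΔK9 clones lie below them from day 4 for the 9 genes other than *Apoe*, and *Apoe* is high in every library.

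In undifferentiated cells no difference between the clones and E14Tg2a was detected. None of the 10 was called on day 0 by limma, and none had an unadjusted p under 0.05, where 0.165% of all genes were called lower and 0.22% higher. The differences ran from -0.86 (*Spink1*) to 0.37 (*Rbp4*) on the log2(TPM + 1) scale. *Rbp4* was at 4.48 to 7.18 TPM in the clones and at 3.40 to 4.18 TPM in E14Tg2a, without passing the test.

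The first day on which the clones differed was day 4, and the difference covered every gene but *Apoe*. *Afp* was at 14.4, 0 and 0.975 TPM in ΔK9.1 and at 42.5, 2.75 and 3.75 TPM in ΔK9.2, against 20.2 to 255 TPM in E14Tg2a. *Ttr* was at 7.10, 0.217 and 0.285 TPM in ΔK9.1 and at 23.9, 2.33 and 3.10 TPM in ΔK9.2, against 20.6 to 125 TPM. For both genes 5 of the 6 clone libraries were below every wild-type library, and replicate 1 of ΔK9.2 reached into the wild-type range. *Rbp4* followed with 4.77, 2.21 and 4.87 TPM in ΔK9.1 and 25.2, 5.03 and 3.66 TPM in ΔK9.2, and *Apob* with 1.57, 0.0433 and 0.0986 TPM in ΔK9.1 and 9.22, 1.21 and 0.842 TPM in ΔK9.2. *Spink1* was at 5.72, 0.336 and 0 TPM in ΔK9.1, where its ES cells had 0.373 to 2.68 TPM, and at 54.3, 3.64 and 3.83 TPM in ΔK9.2. The same library of ΔK9.2 was the one that overlapped wild type for all 9 genes, so that no member had every clone library below every wild-type library, as 5.95% of all genes did.

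Replicate 1 was also the highest wild-type library for all 10 genes on day 4, and the highest ΔK9.2 library for all 10 and the highest ΔK9.1 library for 8. Compared with the E14Tg2a library of the same number, *Afp* in the clones ranged from 0% to 16.7%, *Apob* from 0.542% to 27.7% and *Rbp4* from 4.23% to 41.1%. All 9 genes other than *Apoe* were lower in each of their 6 pairs. Taking both clones together, 9 of the 10 genes were called lower and none higher on day 4, where 0.71% of all genes were called lower and 0.0857% higher. The log2 differences ran from -3.92 ± 0.84 for *Spink1* (adjusted p = 0.0101) and -3.81 ± 0.85 for *Afp* (adjusted p = 0.0138) to -2.57 ± 0.55 for *Apoc2* (adjusted p = 0.00992). The median over the 10 genes was -2.88, beside -0.06 over all genes. This count rests on the spread between libraries of the same line and day, estimated over all 33 libraries. That spread does not measure variation between clones. With the spread taken from the day 4 libraries alone no member was called (adjusted p = 0.0795 to 0.141 for the 9 genes), and without replicate 3 of E14Tg2a on day 4 the count was 5.

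The means of the 2 clones lay apart on day 4, with that of ΔK9.1 further from wild type. The mean of ΔK9.1 was 2.23% (*Spink1*) to 7.74% (*Apoc2*) of the wild-type mean over the 9 genes, and that of ΔK9.2 was 11.2% (*Apoa4*) to 22.8% (*Spink1*). These shares rest on replicate 1, the highest library of each line for most genes. Without it in ΔK9.2 the shares of that clone were 2.61% to 7.16%, and without it in ΔK9.1 those of ΔK9.1 were 0.186% to 5.84%. Without replicate 1 of E14Tg2a they were 3.20% to 22.1% in ΔK9.1 and 22.9% to 40.6% in ΔK9.2, and without it in all lines 0.267% to 10.2% and 5.34% to 12.6%. Tested alone, ΔK9.1 was lower than E14Tg2a for the 9 genes (0.924% of all genes called lower), with 7 to 9 when 1 library was left out. With the spread taken from the compared libraries alone, none of the 10 was called for either clone. By the fit over all libraries ΔK9.2 was lower than E14Tg2a for *Apoa4* alone (-2.52 ± 0.54, adjusted p = 0.0363), where 0.0979% of all genes were. The count for ΔK9.2 was 6 with the replicate number as a block or without its own replicate 1, and 5 without replicate 2 of E14Tg2a. It was 0 without replicate 1 or replicate 3 of E14Tg2a or replicate 2 or replicate 3 of ΔK9.2. The direct test between the clones called none of the 10 genes with limma, although all 10 were higher in ΔK9.2 and 2 of them (*Spink1*, log2 difference 2.37, and *Apob*, 1.27) had an unadjusted p under 0.05. No gene in the table was called in that test, and 833 had an unadjusted p under 0.05.

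The rise from day 0 to day 4 was also tested within each line. In ΔK9.1 none of the 10 genes was called higher, nor had any an unadjusted p under 0.05, where 1.37% of all genes were called higher. *Afp* differed by 1.63 and *Ttr* by 1.19, and *Apom*, *Rbp4* and *Spink1* had small negative differences. In ΔK9.2, 4 genes rose (2.53% of all genes called higher), namely *Afp* by 3.20 ± 0.99, *Ttr* by 2.80 ± 0.86, *Apoa1* by 2.39 ± 0.73 and *Apob* by 1.48 ± 0.53, and without replicate 1 of ΔK9.2 on day 4 none did. Whether the rise itself was smaller in the clones was tested by the interaction of line and day. None of the 10 passed after adjustment with limma (adjusted p = 0.117 to 0.764, with 0.00612% of all genes called lower and 0.0122% higher), although 9 had an unadjusted p under 0.05, as 8.70% of all genes did. Their interaction terms ran from -3.82 (*Afp*) to -2.72 (*Apom*). With the replicate number as a block 1 member passed, without replicate 2 of E14Tg2a on day 4 there were 3, and without replicate 1 of ΔK9.2 on day 4 there were 4. Across day 0 to day 4, rescaling the libraries by their median ratio moved the median of all genes by 0.213 in ΔK9.1, 0.153 in ΔK9.2 and 0.126 in the interaction, and left the direction of each member's count as it was.

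**Figure D3:**
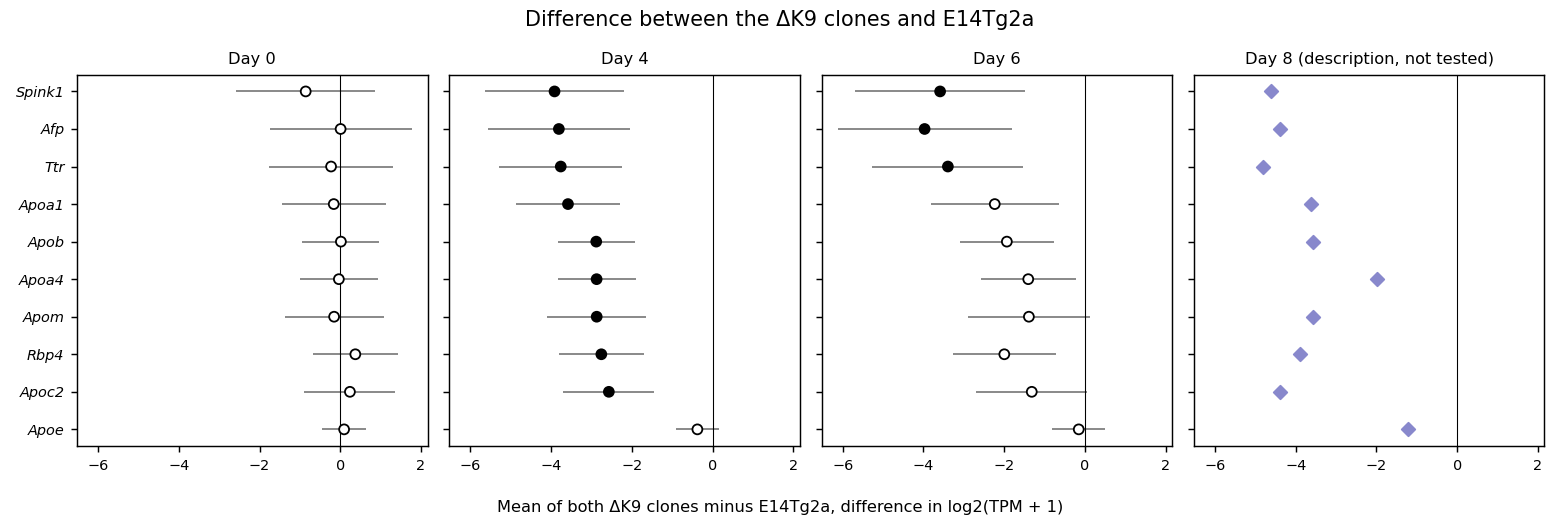
Mean of both ΔK9 clones minus E14Tg2a, as a difference in log2(TPM + 1) (x axis), for each gene (y axis) on each day. Points are limma estimates with bars for the 95% confidence interval, filled where called, and the diamonds of day 8 are differences of means without a test. The points lie near 0 on day 0, from -3.92 to -0.38 on day 4 with 9 called, and on day 6 with 3 called, with *Apoe* nearest to 0 on days 4, 6 and 8.

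On day 6, when the wild-type level was itself low, the clones were at or close to 0 TPM for most of the genes. *Afp* was at 0.0331 and 0.165 TPM in ΔK9.1 and at 0 and 0.206 TPM in ΔK9.2, against 4.65 and 51.4 TPM in E14Tg2a. *Spink1* was at 4.85 and 0.705 TPM in ΔK9.1 and 3.98 and 3.96 TPM in ΔK9.2, against 34.0 and 63.8 TPM. For 8 of the 10 genes no clone library overlapped the wild-type range, a pattern that 19.6% of all genes shared on this day, and the others were *Apoc2* and *Apoe*. Called lower were 3 of the 10 genes (1.37% of all genes), *Afp* (-3.97 ± 1.05, adjusted p = 0.0303), *Ttr* (-3.39 ± 0.91, adjusted p = 0.0332) and *Spink1* (-3.59 ± 1.02, adjusted p = 0.0467). A block on the replicate number, which was taken to mark the parallel assays, gave a count of 5, with *Apoa1* and *Apob* added. A block within each day gave 7. Without a block *Apob* missed the threshold (-1.93 ± 0.57, adjusted p = 0.0532), as did *Rbp4* (-2.00 ± 0.62, adjusted p = 0.0730). Of the fits that left out 1 library, only that without replicate 2 of ΔK9.1 kept the count of 3. It was 1 without replicate 2 of E14Tg2a or with the spread of these groups alone, and 0 without replicate 3 of E14Tg2a, replicate 3 of ΔK9.1, or either library of ΔK9.2.

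From day 0 to day 6 no gene of the 10 was called higher in ΔK9.1 (4.95% of all genes were) or in ΔK9.2 (7% of all genes were). In ΔK9.2 *Apoe* was called lower (-1.21 ± 0.34, adjusted p = 0.00563, with 10.5% of all genes called lower), a call that was lost without replicate 2 of ΔK9.2 on day 6. In ΔK9.1 the corresponding difference of *Apoe* was -0.81 (adjusted p = 0.0687), where 7.9% of all genes were called lower, and 1 member was called without replicate 3 of ΔK9.1 on day 6. The interaction of line and day on day 6 passed for none of the 10 genes with limma (adjusted p = 0.261 to 0.901, 0.22% of all genes called lower and 0.0551% higher), and 6 had an unadjusted p under 0.05, as 10.3% of all genes did.

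On day 8, the day that entered the choice of the genes, all 10 genes were lower in each of the 6 clone libraries than in any wild-type library, which 7.99% of all genes were. *Afp* was at 1.49, 0.275 and 1.33 TPM in ΔK9.1 and at 9.01, 0.217 and 1.46 TPM in ΔK9.2, while E14Tg2a ranged from 20.4 to 129 TPM. *Apoc2* was at 0, 0.198 and 0.411 TPM in ΔK9.1 and at 0.855, 0.607 and 0.335 TPM in ΔK9.2, while E14Tg2a stood at 29.8, 40.7 and 17.9 TPM. *Apob*, the particle protein, was at 0.161, 0.990 and 0.167 TPM in ΔK9.1 and 0.465, 0.347 and 0.167 TPM in ΔK9.2, against 15.7, 22.0 and 9.76 TPM. The least separated of the 10 was *Apoe*, at 319 to 751 TPM in the clones and 1021 to 1272 TPM in E14Tg2a. The difference in mean log2(TPM + 1) was -4.81 for *Ttr* at one end and -1.22 for *Apoe* at the other, with a median of -3.76 over the 10 genes. *Rbp4*, with 5.43 to 16.7 TPM in the clones, overlapped the 4.48 to 7.18 TPM of their ES cells. In these bulk libraries fewer cells of a type and less RNA per cell cannot be told apart.

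One clone library stood above the others on day 8 for a part of the genes. Replicate 2 of ΔK9.1 was at 93.3 TPM for *Spink1*, where the other clone libraries had 3.24 to 10.7 TPM, at 20.9 TPM for *Ttr*, against 0.400 to 2.71 TPM, and at 5.94 TPM for *Apom*, against 0.211 to 1.03 TPM. It was at 16.7 TPM for *Rbp4*, against 5.43 to 11.8 TPM. It did not stand out for *Afp* (0.275 TPM) or *Apoc2* (0.198 TPM). Summed without *Apoe*, the genes made up 140 TPM in this library and 16.1 to 29.0 TPM in the other 5 clone libraries. Without it the day 8 median difference was -4.03 in place of -3.76. No test between the clones is given for this day, since the day 8 values of both clones entered the choice of the genes.

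*Apoe* set itself apart from the other 9 genes by its level and its course. It was at 652 to 831 TPM in E14Tg2a ES cells and at 691 to 860 TPM in ES cells of the clones, and it accounted for 58.3% to 99.5% of the summed TPM of the 10 genes in a library. On day 4 it was at 2193, 958 and 1244 TPM in E14Tg2a, at 939, 891 and 1336 TPM in ΔK9.1 and at 1193, 992 and 1079 TPM in ΔK9.2. The lines overlapped, and the difference of -0.38 ± 0.26 did not pass the test (adjusted p = 0.536). On day 6 the lines overlapped too (-0.15 ± 0.32, adjusted p = 0.890). Only on day 8 did its wild-type and clone libraries separate.

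The correlation of each gene's log2(TPM + 1) with the mean of the other 9, over the 33 libraries, was highest for *Apob* (Pearson r = 0.987) and *Apoa1* (0.962). It was 0.832 for *Spink1* and 0.538 for *Apoe*. The 36 pairs without *Apoe* ranged from 0.726 (*Apoa4* with *Spink1*) to 0.973, with a median of 0.887, and the 9 pairs with *Apoe* from 0.310 to 0.630. *Apoa1*, *Apoa4*, *Apob* and *Afp* were more alike among themselves (0.93 to 0.97) than with *Spink1* (0.73 to 0.85), the gene with the highest ratio of day 8 to day 4 in wild type. The libraries share days and lines, so these values describe likeness in this design and carry no test. Among 12070 genes with a group mean of 5 TPM or more, those most like the average of the 10 were *Spp2* (r = 0.964), *Clic6* (0.949), *Ihh* (0.946), *Mttp* (0.944), *Prss12* (0.940), *Ctsh* (0.930), *S100g* (0.929), *Muc13* (0.929), *Ctsl* (0.927) and *Tfec* (0.918). *Ctsl* and *Ctsh*, which encode lysosomal proteases, were the most abundant of these, with wild-type day 8 means of 481 and 135 TPM.

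**Figure D4:**
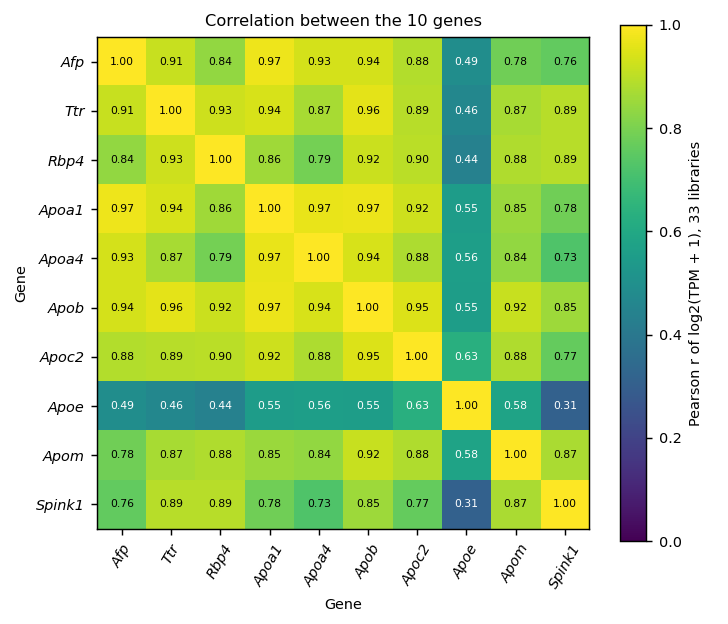
Pearson correlation of log2(TPM + 1) between each pair of the 10 genes (rows and columns) over 33 libraries, with colour from 0 to 1 and the value in each cell. The row of *Apoe* (0.310 to 0.630) stands apart from the other 36 pairs (0.726 to 0.973).

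Other genes were examined as lists by function, compiled with earlier results of these data known. Of 32 further plasma and lipoprotein proteins, 17 were in the table and 3 were called lower in the clones on day 4, with a median difference of -0.37. The most abundant called gene was *Mttp*, which encodes the transfer protein that loads lipid onto apolipoprotein B. It was at 46.5, 8.39 and 22.1 TPM in E14Tg2a, at 5.67, 2.64 and 2.39 TPM in ΔK9.1 and at 18.3, 5.18 and 3.69 TPM in ΔK9.2 (-1.86 ± 0.40, adjusted p = 0.0101). The others were *Fgb*, a fibrinogen chain (-1.19), and *Serpinf2*, the plasmin inhibitor (-1.62), both named after their values were seen and both under 7 TPM in every day 4 library. *Apoa2*, another apolipoprotein of high-density lipoproteins, was at 51.4, 2.54 and 11.0 TPM in E14Tg2a and at 1.45 to 8.52 TPM in the clones without passing the test (-1.54 ± 0.62, adjusted p = 0.210). *Apoo* (-0.13, adjusted p = 0.603) and *Apoc1* did not differ detectably.

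Genes of retinol and lipoprotein handling form the machinery for uptake and assembly. Of 20 listed, 18 were in the table, and on day 4 only *Mttp*, which is on both lists, was called lower, with a median of -0.13. By limma 5 of the 18 were lower at an unadjusted p under 0.05, which 15.5% of all genes passed in either direction on this day. They were *Mttp*, the endocytic receptor gene *Lrp2* (-1.21 ± 0.41, adjusted p = 0.122), *Dgat2*, an enzyme gene of triglyceride synthesis (-0.64), the folding enzyme gene *P4hb* (-0.41) and the secretion factor gene *Sar1b* (-0.28). At the same threshold 2 were higher, *Abcg1*, a cholesterol exporter (0.64), and *Pltp*, which encodes a phospholipid transfer protein (0.61). *Lrp2*, *Dgat2*, *Abcg1* and *Pltp* were named after their values were seen. The receptor gene *Lrp1* differed by -0.07. On day 6 limma called none of the 18 lower, nor was any lower at an unadjusted p under 0.05, and *Abcg1* was called higher (1.29 ± 0.29, adjusted p = 0.0103).

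Genes next to the members on their chromosomes were also listed. *Apoa1* and *Apoa4*, themselves neighbours, were both called lower on day 4. Of 16 listed neighbours outside the 10 genes, 11 were in the table, all near *Apoe* and *Apoc2*, *Apoa1* and *Apoa4*, or *Apom*, so that none was tested beside *Afp*, *Ttr*, *Rbp4*, *Apob* or *Spink1*. None of the 11 was called on day 0, day 4 or day 6 by limma, nor did any have an unadjusted p under 0.05 on day 4 or day 6. On day 0 *Apoc4* (0.38) and *Clptm1* (0.29) did. Their median difference on day 4 was -0.01. In the *Apoe* and *Apoc2* cluster, *Apoc1* lies 3.4 kb from *Apoe* and was at 219, 104 and 112 TPM in E14Tg2a on day 4 and at 110 to 222 TPM in the clones (-0.01, not called). *Tomm40*, *Nectin2* and *Clptm1* there differed by -0.04, 0.15 and -0.03. *Apoc4* had group means of 0.123 to 0.166 TPM on day 4, too low to show a fall. *Zpr1* (-0.01), *Bud13* (0.19) and *Sik3* (0.12), beside *Apoa1* and *Apoa4*, and *Bag6* (-0.16), *Csnk2b* (-0.02) and *Gpank1* (0.23), beside *Apom*, differed by 0.23 or less in either direction.

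Markers of the tissue itself were called lower beside the secreted products on day 4. Of 12 visceral endoderm markers, 8 rose from day 0 to day 4 in E14Tg2a, 1 in ΔK9.2 and none in ΔK9.1. The shares of all genes called higher were 3.67%, 2.53% and 1.37%, in this order. In the clones 8 of the 12 were called lower than wild type on day 4, with a median of -1.55. Tested alone, ΔK9.1 had 8 called lower and ΔK9.2 none, with 9 of the 12 lower in ΔK9.2 at an unadjusted p under 0.05 by limma and a median of -1.34. At that threshold 1308 of all 16336 genes were lower in ΔK9.2. *Dab2*, an endocytic adaptor, was at 208, 29.7 and 129 TPM in E14Tg2a, at 9.29, 2.72 and 2.14 TPM in ΔK9.1 and at 80.1, 11.3 and 11.1 TPM in ΔK9.2 (-3.15 ± 0.76, adjusted p = 0.0217). *Cited1*, a transcriptional coactivator, had the same order (-2.96 ± 0.59, adjusted p = 0.00640). The endocytic receptor genes *Cubn* and *Amn*, the transcription factor gene *Hnf4a*, and *Ihh* and *Cer1*, which encode secreted signals, were also called lower. All of these but *Ihh* were named after their values were seen. *Rhox5* differed by 0.46 and *Dkk1* by -1.25 without a call. On day 0 *Rhox5* was called higher in the clones (2.17 ± 0.48, adjusted p = 0.0103) and the other 11 were not called, with 10 of the 12 differences negative and a median of -0.47. *Dab2* ranged from 2.67 to 58.2 TPM in wild-type libraries on that day, while ΔK9.1 had 1.70 to 3.61 TPM and ΔK9.2 had 1.84 to 24.6 TPM. On day 6 only *Cer1* was called lower (-2.51 ± 0.46, adjusted p = 0.00188), with a median of -1.45 over the 12. The summed level of the 12 markers was 104 to 689 TPM in E14Tg2a and 74.9 to 274 TPM in the clones on day 4, and 229 to 272 TPM against 64.0 to 124 TPM on day 8. *Rhox5* made up much of the sum in the clones. Without it the other 11 summed to 75.4 to 493 TPM in E14Tg2a and at most 186 TPM in the clones on day 4, and to 194 to 218 TPM against 53.3 to 83.4 TPM on day 8.

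Some markers of the related endoderm layers were also called, where 0.71% of all genes were called lower on day 4. Of 6 markers of primitive endoderm, the common precursor layer, *Gata4* (-2.33 ± 0.62, adjusted p = 0.0377) and *Sox17* (-2.67 ± 0.72, adjusted p = 0.0405) were called lower on day 4, and *Gata4* alone on day 6. Their summed level on day 4 was 13.1 to 84.2 TPM in E14Tg2a and 1.79 to 26.9 TPM in the clones, and on day 8 it was 183 to 254 TPM against 33.4 to 140 TPM. Of 10 markers of parietal endoderm, the layer that lays down basement membrane, 4 were called lower on day 4, among them *Sparc* (-2.08 ± 0.44, adjusted p = 0.00914) and the collagen gene *Col4a1* (-3.09 ± 0.69, adjusted p = 0.0133). On day 6 limma called none of the 10, and 7 had an unadjusted p under 0.05, as 17.0% of all genes did in either direction. On day 4 the sum of these 10 was 276 to 1126 TPM in E14Tg2a and 104 to 486 TPM in the clones. On day 8 it was 1205 to 1438 TPM against 325 to 560 TPM. Tested alone on day 4, ΔK9.1 had 2 of the 6 and 5 of the 10 called lower. ΔK9.2 had none of either, with 5 and 6 lower at an unadjusted p under 0.05 by limma, a threshold that 10.5% of all genes passed in either direction. On day 0 none of either list was called by limma, and 1 (*Lamc1*) was lower at an unadjusted p under 0.05. The medians were -0.90 for primitive and -0.41 for parietal endoderm. The part of these layers in the secreted protein result was not tested.

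Markers of other cell types that could make or accompany these products were not called on day 4. None of the 7 measured markers of definitive endoderm and gut was called, nor of the 3 hepatocyte, 2 macrophage, 8 mesoderm, 5 neuroectoderm, 8 pluripotency and 4 trophoblast markers. The 8 mesoderm markers summed to only 2.75 to 6.80 TPM in E14Tg2a on day 4, too low to show a fall. By limma 2 of these genes had an unadjusted p under 0.05, *Sox1* (-1.01, named after its value was seen) and *Tfap2c* (0.57). *Spink1* is itself used as a gut marker under its older name *Spink3*. *Tdo2*, a liver enzyme gene, was at 0 TPM in every day 4 library of all lines, and the 3 hepatocyte markers together were at 1.75 to 4.13 TPM in E14Tg2a and 2.02 to 4.42 TPM in the clones. On day 8 *Tdo2* was at 9.83, 22.0 and 39.5 TPM in E14Tg2a and at 0.152 to 3.93 TPM in the clones, and its part in the day 8 values was not tested. The 8 pluripotency markers summed to 1588 to 2020 TPM in E14Tg2a and 1680 to 1935 TPM in the clones on day 4. Their sums were 1064 to 1190 TPM against 1552 to 1938 TPM on day 6. On day 8 they were 153 to 312 TPM against 335 to 966 TPM. The 8 mesoderm markers summed to 739 to 844 TPM in E14Tg2a and 159 to 690 TPM in the clones on day 8. On day 6 the mesoderm genes *Hand1*, *Hand2* and *Foxf1* and the endoderm genes *Cxcr4* and *Gsc* were also called lower in the clones, the last of these named after its value was seen.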

How the data were processed

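E14Tg2a, ΔK9.1 and ΔK9.2 cells were differentiated in parallel in 3 independent assays and profiled by stranded, poly-A selected, paired-end RNA-seq. The authors aligned reads to mm10 with STAR, estimated expression with RSEM and deposited TPM values for genes with a group mean of at least 1 TPM, after leaving out outliers of a principal component analysis. Versions and gene annotation are not given in the sources used here. The deposited table also holds 22 columns of the authors' own comparisons (fold changes and adjusted p-values from DESeq2), which were not used. TPM carries no read depth, so no counting interval can be given. Each library summed to 994284 to 998266 TPM over the genes listed.

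Groups followed the sample titles (12 groups of line and day). Differences were fitted with limma 3.58.1 in R 4.3.3 on log2(TPM + 1) over all 33 libraries and 16336 genes, with one mean per group and an intensity trend, and were adjusted by the Benjamini-Hochberg method. This replaced the count model of the study, since TPM values are no counts. The scripts were tested on simulated data. The members, gene lists and comparisons were chosen with earlier results of these data known. All 10 members, Nanog, all measured neighbours, up to 4 genes of each other list with the highest wild-type day 8 mean, and the 10 genes most like the members were named by rule, and other names are marked. Some listed genes are not reported by name here. The fits were repeated with 0.1 as pseudocount, with a higher (5 TPM) or no minimum, rescaling by the median ratio, the compared groups alone, a replicate block, and leaving out each library. Libraries with the same replicate number deviated together on days 0, 4 and 8 (each of 27 pairs correlated above 0.1, lowest 0.120). On day 6, with 2 libraries a line, 4 of 6 pairs did. The numbers were taken to mark the parallel assays, which the sample titles do not state. Sequences are from RefSeq GRCm38.p6, and positions from GENCODE M21.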

Additional observations from a re-analysis of the deposited data

How the results depend on the processing

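The counts below are of the 10 genes called. With a pseudocount of 0.1, ΔK9.1 on day 6 against day 0 gave 1 in place of 0, and ΔK9.2 against E14Tg2a on day 4 gave 0 in place of 1. With the replicate block, clones against E14Tg2a on day 6 gave 5 in place of 3, ΔK9.2 against E14Tg2a on day 4 gave 6 in place of 1, and the day 4 interaction 1 in place of 0. A replicate block within each day, added after seeing the data, gave 7 for the day 6 comparison, and neither block changed another count by over 1.5 times. With only the groups compared in the fit, clones against E14Tg2a gave 0 on day 4 and 1 on day 6, each clone alone 0 on day 4, ΔK9.2 on day 6 against day 0 gave 2, the day 6 interaction 1, and E14Tg2a on day 6 against day 4 gave 1. This fit has few residual degrees of freedom. The minimum of 5 TPM, no minimum and rescaling changed no count by over 1.5 times. 

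Leaving out 1 library at a time gave 5 to 9 for clones against E14Tg2a on day 4, 0 to 3 on day 6, 7 to 9 for ΔK9.1 and 0 to 6 for ΔK9.2 on day 4, and a day 8 median difference of -4.03 to -3.64. In E14Tg2a it gave 7 to 10 for day 4 against day 0, 0 to 6 for day 6 against day 0 and 1 to 8 for day 6 against day 4. It gave 0 to 4 for ΔK9.2 on day 4 against day 0, 0 to 1 for each clone on day 6 against day 0, and 0 to 4 for the day 4 interaction. The difference of *Apoe* on day 6 ran from -0.48 to 0.17, positive without replicate 3 of E14Tg2a (0.17) and without replicate 2 of ΔK9.1 (0.10), and never near the threshold. The causes were not tested. Of the values of single genes, 360 kept their direction and side of the threshold, 37 fell short of it, 11 newly passed it and 2 turned. TPM values close to 0 limit what can be said of *Apoa4*, *Apob* and *Apoc2* in the clones.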
